A study of Homo sapiens with 4 samples.

Results

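The replication-dependent histone genes of the short arm of chromosome 6, at 6p22, lie in 3 clusters, and the listed ATAC-seq summits inside these clusters are described here. A summit was taken as a member when its position in the hg19 genome fell in cluster 1 (chr6:26010000-26290000), cluster 2 (chr6:27090000-27120000) or cluster 3 (chr6:27770000-27870000). By this positional rule 23 of the 371521 listed summits were members, 18 of them in cluster 1, none in cluster 2 and 5 in cluster 3. They lay in 21 distinct regions, since 2 regions carried 2 summits each. The 800 kb of chromosome 6 between clusters 1 and 2, with 22 summits, served as the comparison.

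ATAC-seq marks open chromatin by the cuts of the Tn5 transposase, and was carried out on 75000 cells per library of T47D-MTVL, breast cancer cells derived from T47D. Both groups carry a stably integrated luciferase reporter under the MMTV promoter: the multiH1sh group (2 samples) expresses an shRNA that targets multiple variants of linker histone H1, and the RDsh group (2 samples) a random shRNA. The labels do not say whether the samples of a group are separate cultures. A single peak list for the 4 samples was used. Its name calls it multiH1sh, differential against RDsh, whereas its track line has 225sh in place of multiH1sh, a name the labels do not use. That both mean the same cells is an assumption. With no value per sample in it, the list allows no comparison of knock-down with control and no spread between replicates, so no p-value is given for any difference below.

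Core histones H2A, H2B, H3 and H4 form the protein spool of the nucleosome, and linker histone H1 binds where the DNA enters and leaves it. Cells make most core histones in S phase from many short, intronless gene copies, which are transcribed together from clusters gathered in a nuclear compartment called the histone locus body. Several genes for H1 itself lie among the core genes, and serve only as landmarks here.

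The gene content of the clusters was taken from the order of genes in RefSeq (GRCh38.p14). Because that build is not the build of the list, only names and neighbours were used, and no summit was assigned to a gene. Histone genes formed 3 groups on 6p in that order, apart from the pair H2AC1 and H2BC1, which other genes separate from them. The group matching cluster 1 by order had 27 core genes (4 H2A, 8 H2B, 7 H3 and 8 H4), with 5 genes for H1 and, as the 1 other protein-coding gene, HFE, a regulator of iron uptake. It ran from H1-1 and H3C1 (formerly HIST1H3A) to H4C8 (HIST1H4H). The group matching cluster 2 had 5 core genes, H2BC11, H2AC11, H2BC12, H4C9 and H2AC12. The group matching cluster 3 had 15 core genes, from H2BC13 to H2BC17, and 1 gene for H1, H1-5. In all there were 47 core genes, of which 11 encode H2A, 14 H2B, 10 H3 and 12 H4. Between clusters 1 and 2 RefSeq lists 9 protein-coding genes, among them the butyrophilin genes BTN3A2 to BTN1A1, HMGN4, ABT1 and ZNF322, and 47 tRNA genes.

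The promoters of the core genes show what these copies share, and 1 promoter of each family follows, the first along the chromosome that the RefSeq table holds. Each line gives chromosome 6 sequence of GRCh38.p14 on the strand of the gene, from 150 bases before the annotated start of the gene to 50 bases from it. Capitals mark TATAAA (the TATA box, at which the basal transcription machinery assembles), CCAAT (the motif bound by NF-Y) and ATTTGCAT (the octamer motif bound by Oct-1, a known activator of H2B genes), each on either strand.
H3C1 (strand +): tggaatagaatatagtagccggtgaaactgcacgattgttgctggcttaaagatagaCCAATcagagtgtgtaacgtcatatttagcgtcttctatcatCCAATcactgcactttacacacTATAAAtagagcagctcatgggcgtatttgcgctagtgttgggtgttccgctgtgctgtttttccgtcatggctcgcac
H4C2 (strand -): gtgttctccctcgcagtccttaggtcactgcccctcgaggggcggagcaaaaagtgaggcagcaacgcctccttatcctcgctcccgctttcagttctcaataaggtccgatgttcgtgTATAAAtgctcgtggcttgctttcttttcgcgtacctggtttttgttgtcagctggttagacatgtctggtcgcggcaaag
H2AC4 (strand -): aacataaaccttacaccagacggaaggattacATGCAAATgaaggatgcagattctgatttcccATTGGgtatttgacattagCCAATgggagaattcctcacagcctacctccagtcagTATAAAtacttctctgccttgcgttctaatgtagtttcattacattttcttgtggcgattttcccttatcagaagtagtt
H2BC3 (strand -): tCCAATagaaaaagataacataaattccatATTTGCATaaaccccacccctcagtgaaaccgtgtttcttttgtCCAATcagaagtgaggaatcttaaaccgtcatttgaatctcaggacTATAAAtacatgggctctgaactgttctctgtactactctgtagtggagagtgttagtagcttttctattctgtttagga

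All 4 promoters have a TATA box close to the start, 29 bases before it in H3C1, 31 in H4C2 and 30 in both H2AC4 and H2BC3. H3C1, H2AC4 and H2BC3 carry 2 CCAAT motifs each in the printed stretch, on either strand, whereas H4C2 carries none. The octamer stands 118 bases before the start in H2AC4, on the opposite strand, and 120 bases before it in H2BC3. Over the full 300 bases (250 before the start and 50 from it), RefSeq held promoters for 42 of the 47 core genes. A TATA box on either strand was present in 28 of these 42 (66.7%, 95% Wilson interval 51.6 to 79.0%), against 11.5% of all 35116 promoters in the table. In 21 of the 42 it stood on the strand of the gene 20 to 40 bases before the start, against 2.304% of all promoters. The Wilson interval treats promoters as independent, though the 300 base windows of some neighbouring genes overlap.

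CCAAT separated the H4 genes from the others. All 10 H2A, all 14 H2B and all 8 H3 promoters contained it on either strand, but 3 of 10 H4 promoters did, and 34.6% of all promoters. The octamer followed another line, being present in 11 of 14 H2B and 8 of 10 H2A promoters, in 1 of 8 H3 promoters and in none of 10 H4 promoters, against 1.77% of all promoters. These H2A and H2B counts are not independent. Of 11 neighbouring pairs of an H2A and an H2B gene 8 are divergent, that is, transcribed away from each other. In all 8 the 300 base windows overlap, so that both genes can count the same motif. The 3 motifs do not contain one another. A match is a match of letters only, and whether a listed region covers any of these promoters was not tested.

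**Figure D1:**
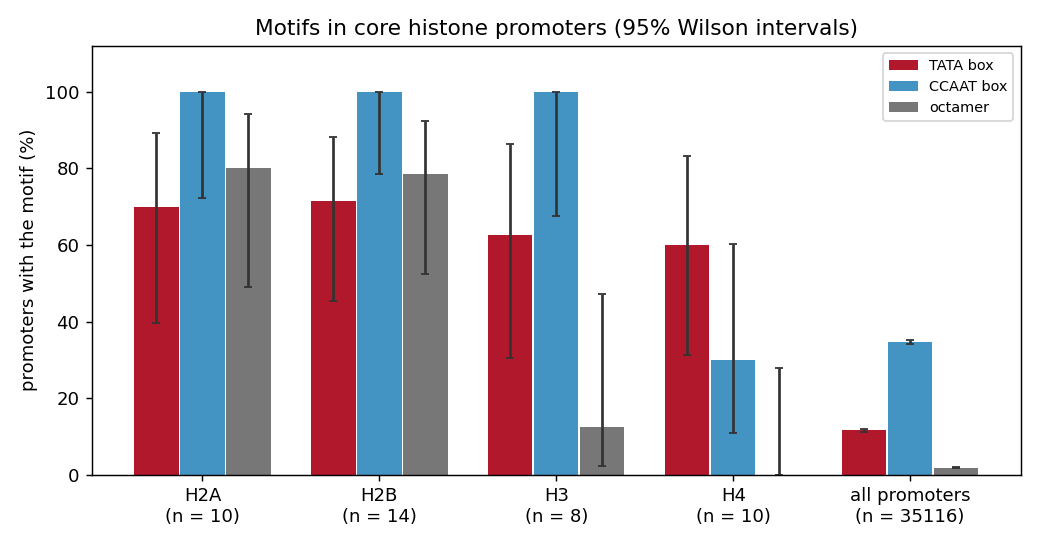
Share of promoters (%) with a TATA box, a CCAAT box or an octamer on either strand in 300 bases around the start, for the core histone genes of each family in the 6p22 clusters and for all 35116 RefSeq promoters; bars are shares and lines 95% Wilson intervals. CCAAT is in all H2A, H2B and H3 promoters but in 3 of 10 H4 promoters, and the octamer is found mainly in H2A and H2B promoters.

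Summits in the clusters are given by the number of reads over them and by the authors' fold enrichment, which is the ratio of that number plus 1 to a background plus 1. The background was the same for all listed summits that were solved, at 2.01 reads, so the fold is relative to a genome-wide level and not to the control cells. The weakest listed summits had 10 reads. Sequence without a listed summit may therefore hold 9 or fewer reads at any point, and is not shown to be closed. The list is also named differential against RDsh. If summits shared with the control were left out of it, unlisted sequence may hold more reads than that, which could not be checked. The narrowest listed region had 96 bp, so shorter stretches with more reads may also be missing.

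Cluster 1 had the strongest summits, and these lay at its start. The region chr6:26020692-26020959 (268 bp) reached 24 reads, a fold of 8.31, with its summit at 26020798. This was the highest summit of the 3 clusters, yet 12.2% of all listed summits and 7.37% of those on chromosome 6 had a higher fold. Next to it lay the widest region of the clusters, chr6:26021690-26022239 (550 bp), with 2 summits of 18 and 17 reads (folds of 6.32 and 5.98). Before them came 2 weaker regions, chr6:26017582-26017744 with 14 reads and chr6:26018152-26018265 with 11 reads. These 4 regions spanned 4658 bp together.

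The rest of cluster 1 stayed within a narrow band of 10 to 15 reads. The single region chr6:26055225-26055391 had 14 reads. Further on, chr6:26087997-26088141 had 12 reads and chr6:26092890-26093046 had 10 reads, the lowest value that the list holds. After a stretch of 104 kb without any listed region, which took up 37.2% of the cluster, chr6:26197293-26197598 had 13 reads and chr6:26199593-26199806 had 14. None of these 5 regions had more than 14 reads.

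The last 100 kb of cluster 1 held 9 regions, those 2 included. The region chr6:26217354-26217468 had 11 reads and its neighbour chr6:26218451-26218835 had 15 (a fold of 5.32). Then came 3 regions within 4528 bp, chr6:26250041-26250274 with 11 reads, chr6:26250478-26250648 with 13 and chr6:26254230-26254568 with 12. The last were chr6:26273311-26273427 with 15 reads and chr6:26285550-26285848, which had 2 summits of 15 and 14 reads. Folds in this last part ran up to 5.32, against 8.31 in the first 100 kb, which held 7 regions. The 80 kb between these ends of the cluster held none.

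Cluster 3 had no summit above 13 reads. Its 5 regions had 1 summit each, and their folds ran from 3.66 to 4.65. The region chr6:27782182-27782400 had 12 reads and the adjoining chr6:27782588-27782694 had 10. The others were chr6:27799089-27799357 with 12 reads, chr6:27806069-27806176 with 11 and chr6:27839898-27840005 with 13. The highest of them lay below the median of 14 reads in cluster 1, but the 2 clusters overlapped, since 4 summits of cluster 1 had 10 or 11 reads. The last 30.0 kb of cluster 3 held no region.

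No summit was listed in the 30 kb of cluster 2, whose matching group of genes holds H2BC11, H2AC11, H2BC12, H4C9 and H2AC12. The nearest summits lay at 27018037, 72.0 kb before it, and at 27173031, 53.0 kb after it. An empty stretch of this length was common: of 101131 windows of 30 kb on chromosomes 1 to 22 and X, 65.2% held no summit, and on chromosome 6 74.2% held none. Gaps in the assembly were not taken out of these windows. With 0 summits the exact 95% Poisson interval of the density reached up to 123 per Mb, so that a density like that of cluster 1 was not distinguishable from 0 at this length.

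**Figure D2:**
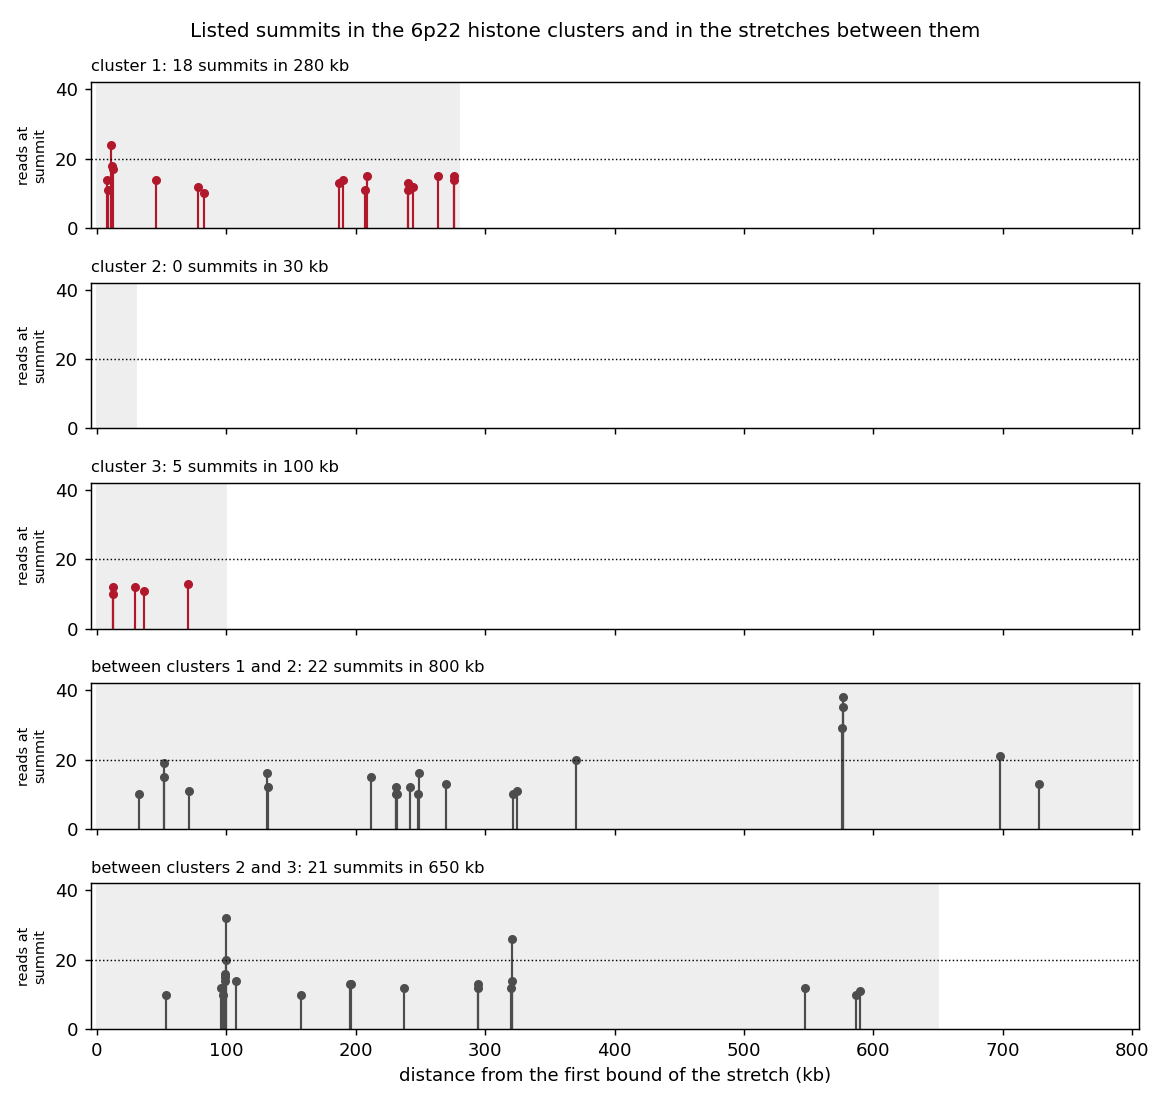
Reads at each listed summit (vertical axis) against its distance in kb from the first bound of the stretch (horizontal axis), in the 3 histone clusters (red) and in the 2 stretches between them (grey), with the length of each stretch shaded and 20 reads dotted. Of the cluster summits 1 lies above 20 reads, cluster 2 is empty, and the stretch between clusters 1 and 2 has summits of up to 38 reads.

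When regions less than 5 kb apart were joined, a distance chosen after the values were seen, the 21 regions formed 12 groups, 8 in cluster 1 and 4 in cluster 3. Of the 21 regions 15 stood in 6 groups of several regions, as did 9 of 19 regions between clusters 1 and 2 and 12 of 17 between clusters 2 and 3. The median distance from a region to the next was 4748 bp in cluster 1 and 11552 bp in cluster 3, against 18996 bp in the stretch between clusters 1 and 2. Per core histone gene there were 0.593 regions in cluster 1 and 0.333 in cluster 3, or 21 regions for 47 genes over all 3 clusters. There were thus fewer regions than core genes in each of the 3 clusters. These are plain counts, since the clusters also hold genes for H1 and HFE and no region was assigned to a gene. No such ratio was taken for other sequence.

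The clusters had more listed summits per length than the stretch between clusters 1 and 2. The density was 56.1 per Mb in the clusters (exact 95% Poisson interval 35.6 to 84.2, counting error only) and 27.5 per Mb between clusters 1 and 2 (17.2 to 41.6), a ratio of 2.04 (exact 95% interval 1.09 to 3.84). Counted by regions the ratio was 2.16 (1.104 to 4.24). These intervals treat summits as independent, which neighbouring summits are not. At 20 reads or more the clusters had 1 summit and the stretch between clusters 1 and 2 had 5, a density ratio of 0.390. No interval was computed for this ratio. Of the 5 summits 3 lay in 1 region, so these few counts do not show a reversed order. By cluster, the density was 64.3 per Mb in cluster 1 (38.1 to 101.6) and 50 per Mb (16.2 to 116.7) in cluster 3, values that are not apart beyond counting error.

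Set against wider sequence, the clusters were close in mean density to the rest of chromosome 6 and below the whole list. By rank, clusters 1 and 3 held more summits than most windows of their length. Gaps in the assembly were not taken out, so windows there count as having fewer. On chromosomes 1 to 22 and X, 25.4% of the windows of 280 kb and 43.5% of those of 100 kb held no summit. The rest of chromosome 6 had 48.4 summits per Mb, and the ratio of the clusters to it was 1.16 (0.734 to 1.74). All chromosomes together had 124 per Mb, 2.20 times the clusters (1.47 to 3.47). Of the windows of 280 kb on chromosomes 1 to 22 and X, 73.2% held fewer summits than the 18 of cluster 1 and 25.96% held more. On chromosome 6, 85.7% held fewer. The median window of 280 kb held 4 summits, and 2 on chromosome 6. For cluster 3, 70.5% of the windows of 100 kb held fewer than its 5 summits and 26.7% held more, with a median of 1. The stretch between clusters 1 and 2 also held more summits than most windows of its length. Of the windows of 800 kb, 57.7% held fewer than its 22 summits, and 72.3% did so on chromosome 6. The flanks of the clusters differed, with 3 summits in the 280 kb before cluster 1, 14 in the 280 kb after it and 1 in the 100 kb after cluster 3. Those 280 kb after cluster 1 are the first part of the comparison stretch, and held 14 of its 22 summits. The nearest outside summits lay 17.1 kb before cluster 1, at a fold of 4.65, and 32.5 kb after it, at 3.66.

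**Figure D3:**
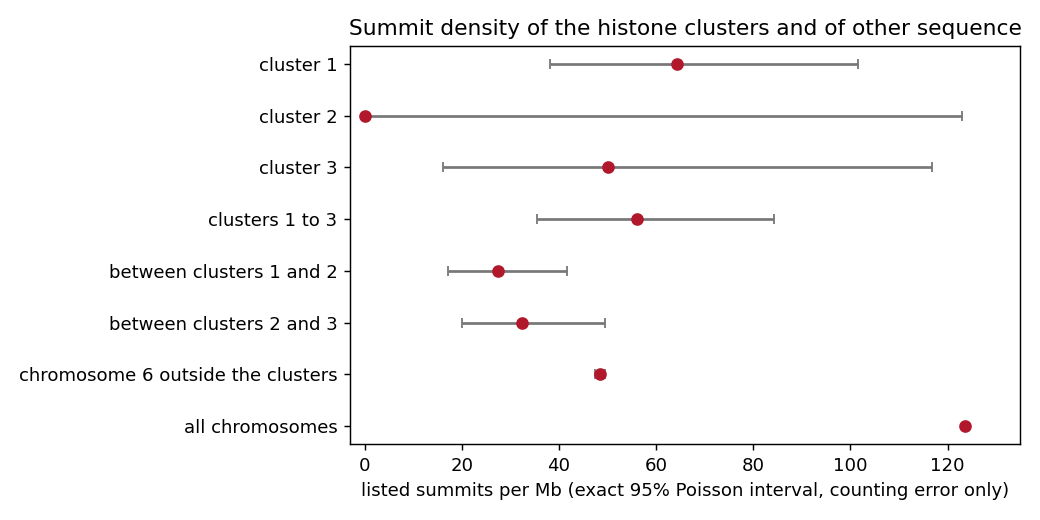
Listed summits per Mb (points) with exact 95% Poisson intervals (lines, counting error only) in the histone clusters, in the stretches between them, in the rest of chromosome 6 and over all chromosomes. The clusters together lie at 56.1 per Mb, above the 27.5 between clusters 1 and 2 and below the 124 of all chromosomes.

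Few of the cluster summits were deep. Of the 23 summits 20 had 15 reads or fewer, and 1 (4.35%, 95% Wilson interval 0.772 to 21.0%) had 20 reads or more, against 26.5% of all listed summits. In the stretch between clusters 1 and 2 it was 5 of 22 (22.7%, 10.1 to 43.4%), and in the rest of chromosome 6 it was 18.4%. The intervals of the clusters and of the stretch between them overlap, and no test was made, since summits of 1 list are not replicates. At 16 reads or more the clusters had 3 of 23 summits (13.04%), the stretch between them 8 of 22 (36.4%) and the whole list 49.98%. At the median of summits no difference was seen, with 13 reads and a fold of 4.65 in the clusters and in the stretch between them alike. With each region counted once the difference in median fold, clusters minus stretch, was 0.33. Without cluster 1 it was -0.33. Over all listed summits the median was 15 reads and a fold of 5.32, and 66.9% of them lay above the median of the clusters.

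**Figure D4:**
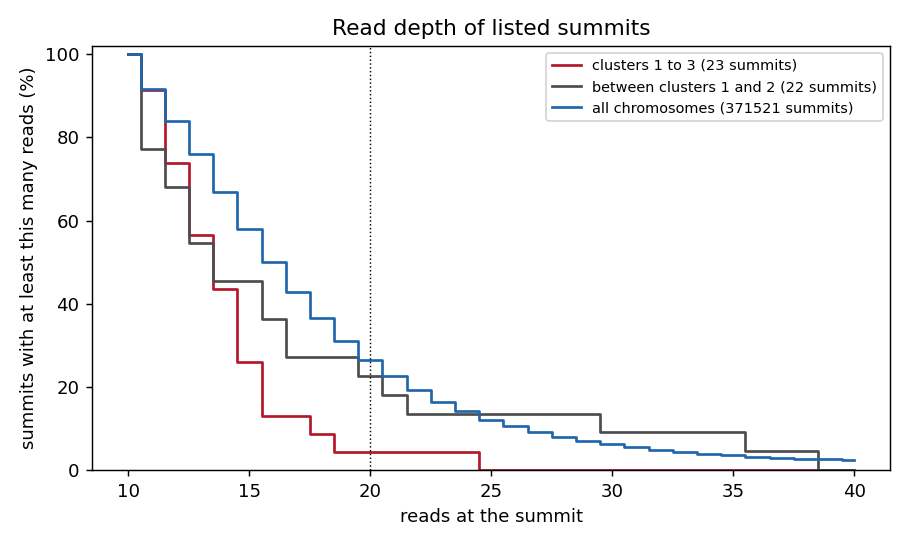
Share of listed summits (%) with at least the number of reads on the horizontal axis, for the 23 cluster summits (red), the 22 summits between clusters 1 and 2 (grey) and all 371521 summits (blue), with 20 reads dotted. At 20 reads the cluster line is at 4.35% and that of all summits at 26.5%.

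The strong summits of the comparison stretch lay in few places. Of its 5 summits of 20 reads or more, 3 were in the region chr6:26865533-26867532 (2000 bp), with 38, 35 and 29 reads. The others were in chr6:26987827-26988162 with 21 reads and chr6:26659925-26660113 with 20. Next was chr6:26341878-26342114 with summits of 19 and 15 reads, followed by chr6:26421536-26421642 and chr6:26538497-26538791 at 16 reads each. Taking only the highest summit of each region, 3 regions of this stretch and 1 of the clusters thus had 20 reads or more. A second stretch, the 650 kb between clusters 2 and 3, had 21 summits, 3 of them of 20 reads or more, and a median fold of 4.65 again.

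Regions in the clusters mostly had 1 summit, and their median width was below that of the whole list. This median was 171 bp, with widths from 107 to 550 bp, against 166 bp between clusters 1 and 2. It was 190 bp in the rest of chromosome 6 and 208 bp over the whole list. In cluster 1 the median was 192.5 bp and in cluster 3 it was 108 bp. Regions with several summits made up 2 of 21 in the clusters (9.52%), 2 of 19 between clusters 1 and 2 (10.5%) and 28.2% of the whole list. In all, listed regions covered 1.11% of the length of the clusters, 0.627% of the stretch between clusters 1 and 2, 0.963% of the rest of chromosome 6 and 2.43% of all chromosomes.

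Core histone genes are near-copies of each other, and how reads that fit several places were handled is not given in the sources used here. Of 251 windows of 50 bases in each promoter, a mean of 3.45% over the 42 core histone promoters stood also at another position among the RefSeq promoters, on either strand, against 2.11% over all promoters. At least 1 such window was found in 6 of the 42 (14.3%), against 3.88% of all promoters, namely in 2 of 10 H2A, 2 of 14 H2B, none of 8 H3 and 2 of 10 H4 promoters, and made up at most 37.5% of a promoter. Of the coding sequence, where the copies are most alike, the windows hold at most the first bases, and its part in the low read numbers was not tested.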

How the data were processed

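Peaks were called with MACS2 from reads aligned with Bowtie 1.1.2 to hg19, per the submitters' processing notes. Not given in the sources used here are the MACS2 options, the read length, the depth per sample, and whether duplicates were removed or replicates pooled. Per the narrowPeak format, the deposited list holds the fold enrichment, which is a ratio, and −log10 p and q of each summit. The deposited score was not used.

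From these values the pileup and background of each of the 177 distinct pairs of fold and p within floating point range were solved, with the fold as (pileup + 1) / (background + 1) and p as the Poisson tail above the pileup. All 177 gave the same background, and pileups follow from the fold. The solver was tested on simulated data. A distinct start and end is a region, and positions count from 1. The length of a chromosome is the span of its listed regions. Tiled windows start at the first base of each chromosome and end at its last listed region.

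Histone genes were named by symbol from RefSeq, a new group starting after 3 or more other protein-coding genes. Regions named are the 10 of highest fold, the 5 widest, the one with the most summits in each cluster, and the 5 of highest fold between clusters 1 and 2, where a tie for the fifth place adds 1. As the clusters hold 21 regions, all are named. Members, motifs and lists were chosen with earlier results of these data known. Intervals cover counting error only, since reads amplified by PCR can come from the same molecule. The tools were Python 3.11.15, numpy 2.4.6, scipy 1.17.1, pandas 2.3.3 and matplotlib 3.10.9.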

Additional observations from a re-analysis of the deposited data

How the results depend on the processing

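With 12 alternatives, 4 values were recomputed: the density, its ratio to the stretch between clusters 1 and 2, the difference in median fold and the share of summits of 20 reads or more. Of 43 recomputed values 37 stayed within the 95% interval of the reported one, and the ratio kept its direction in each of these. Some of the 37 could not move or repeat another. Cluster 2 holds no summit, so leaving it out could not change the difference in median fold or the share. Taking midpoints kept the same numbers of summits, and merging regions gave the values of counting each region once. Against the rest of chromosome 6 the ratio was 1.16, and its own interval, 0.734 to 1.74, includes 1. The density of 56.1 per Mb fell to 14.6 with summits at or above the median fold of the whole list (58.1% of all summits, as many are tied) and to 2.44 with summits of 20 reads or more, both by construction. The ratio of 2.04 turned to 0.390 with summits of 20 reads or more, where it rests on 1 summit against 5. The difference in median fold, 0, became -1.16 at or above the median fold and -1.66 at 20 reads or more, the latter with 1 cluster summit. For this difference the interval is that of the cluster median, with the median of the comparison held fixed. A reported difference of 0 has no direction to keep, and the sign varied among the alternatives. It was 0.33 with each region counted once or without cluster 3. Without cluster 1 or against the rest of chromosome 6 it was -0.33. These values lie at the limits of the interval. The share of 4.35% became 0% without cluster 1, by construction, since its 1 summit lies there. Leaving out cluster 1 also took the ratio to 1.40, and it was 1.17 at or above the median fold and 1.74 against the stretch between clusters 2 and 3. For shifts not due to construction the cause was not tested. No paired analysis was possible because single samples have no values in the list, which also kept replicates from being left out in turn. The limit of 10 reads, and any removal of summits shared with the control, set what the list can show. With 23 summits only large differences in share are measurable.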
